A study of Homo sapiens with 6 samples.

Results

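The Polycomb repressive complex genes examined here were 10 genes named by symbol in the deposited table of counts, namely BMI1, PCGF2, RING1, RNF2, CBX2, CBX7, EZH1, EZH2, SUZ12 and EED, out of 33451 genes listed. All 10 were found and all 10 passed the low-count filter. They were measured by mRNA sequencing in MDA-MB-453, an established human breast cancer cell line, which was cultured for 5 days with 100 nM 25(OH)D, the circulating form of vitamin D, or with its alcohol solvent alone. There were 3 libraries of each group, and the total counts lay between 33268860 and 40928176 per library. The study's methods call the libraries biological replicates and do not say how the cultures were separated, so the p-values measure the spread between these libraries, which may be partly technical.

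Polycomb proteins keep developmental and cell cycle genes silent through marks on histones, and they work in a pair of complexes. In Polycomb repressive complex 2 (PRC2), EZH2 or its paralogue EZH1 methylates histone H3, SUZ12 is the scaffold and EED binds the finished mark and stimulates the enzyme. In Polycomb repressive complex 1 (PRC1), RING1 or RNF2 adds ubiquitin to histone H2A together with a PCGF protein such as BMI1 or PCGF2, and a CBX protein such as CBX2 or CBX7 binds the mark left by PRC2. EZH2 and BMI1 are well known in breast cancer for their roles in proliferation and self-renewal.

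After 25(OH)D, 4 of the 10 genes fell and 0 rose. CBX2 fell furthest, to 54.6% of the control level, followed by BMI1 at 71.6%, EZH2 at 80.5% and SUZ12 at 88.9%. These are levels in CPM, counts scaled to library size with TMM factors. A gene was called when its quasi-likelihood p in edgeR, adjusted by Benjamini-Hochberg over the 18183 genes tested, was under 0.05. This test gave every adjusted p printed with a fold change, unless another test or setting is named. Of all genes tested, 16.5% were called lower, 17.3% higher and 33.8% in either direction by the same rule. The count of 0 rises among the members was also 0 at an unadjusted p under 0.05, with DESeq2 and with limma voom. The fallen genes were split evenly, with 2 of 6 PRC1 members and 2 of 4 PRC2 members. No member passed an absolute log2 fold change of 1 at an unadjusted p under 0.05, limits passed downwards by 2.63% and upwards by 4.02% of all genes. The median log2 fold change of the members was -0.13, against -0.01 over all genes tested. In bulk RNA, fewer cells expressing a gene and less RNA per cell cannot be told apart.

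**Figure D1:**
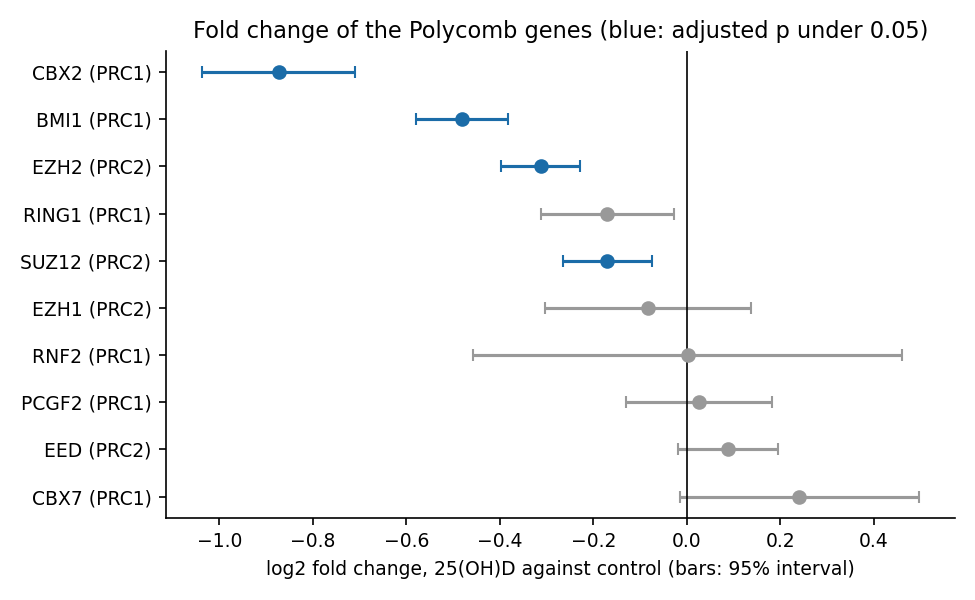
Fold change of the 10 Polycomb genes on the log2 scale (x axis, 25(OH)D against control, 3 libraries each), with the complex of each gene in brackets and bars for the 95% interval from edgeR. The points of CBX2, BMI1, EZH2 and SUZ12 are blue (adjusted p under 0.05) and lie below 0, while the 6 grey points did not pass the test.

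The start regions of 9 of the 10 genes, in 11 RefSeq entries on GRCh38.p14, were searched for words bound by factors of the cell cycle and by the vitamin D receptor. Each window ran from 250 bases before to 50 bases after a start site, and both strands were searched. The E2F words TTTCCCGC, TTTCGCGC, TTTGCCGC and TTTGGCGC are read by the E2F factors of the G1 to S transition. They were present in 3 of the 11 windows, 1 each of EZH2, SUZ12 and EZH1, against 3.315% of all 35116 windows. The E-box CACGTG, the word of MYC and MAX, was in 1 of the 11 windows, that of BMI1 printed below, against 7.26% of all windows. EZH2 and BMI1 each had another window, which held none of the words. The DR3-type vitamin D response element was found in none of the 11 windows and in 0.0740% of all windows, which says only that these letters are not in these windows. A match is a description of the letters and not a sign of binding. The windows with a match are shown because 3 of them belong to genes that fell and 1 to EZH1, which did not pass the test. Each is printed 5′ to 3′ on the strand of the gene, from 250 bases before the start site to 30 bases after it, with the matched word in capitals (in EZH1 the word is on the opposite strand and reads GCGGCAAA).
EZH2 (chr7:148884262-148884541, minus strand): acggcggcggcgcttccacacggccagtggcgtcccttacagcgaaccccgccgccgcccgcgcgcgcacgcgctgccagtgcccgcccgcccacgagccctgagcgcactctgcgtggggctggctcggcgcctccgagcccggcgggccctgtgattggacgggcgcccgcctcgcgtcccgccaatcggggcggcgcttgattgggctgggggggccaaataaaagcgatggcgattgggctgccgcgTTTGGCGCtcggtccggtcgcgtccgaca
SUZ12 (chr17:31936757-31937036, plus strand): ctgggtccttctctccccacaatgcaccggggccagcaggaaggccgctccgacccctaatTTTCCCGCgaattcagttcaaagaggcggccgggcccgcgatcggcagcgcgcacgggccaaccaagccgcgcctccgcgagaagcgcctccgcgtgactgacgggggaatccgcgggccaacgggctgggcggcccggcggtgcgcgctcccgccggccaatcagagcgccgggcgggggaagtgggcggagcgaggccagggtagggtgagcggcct
EZH1 (chr17:42745011-42745290, minus strand): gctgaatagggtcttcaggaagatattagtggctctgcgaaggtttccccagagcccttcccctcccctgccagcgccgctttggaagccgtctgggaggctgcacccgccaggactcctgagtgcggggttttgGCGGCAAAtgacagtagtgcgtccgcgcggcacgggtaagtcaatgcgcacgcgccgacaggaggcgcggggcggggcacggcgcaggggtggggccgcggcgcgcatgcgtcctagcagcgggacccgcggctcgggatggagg
BMI1 (chr10:22320849-22321128, plus strand): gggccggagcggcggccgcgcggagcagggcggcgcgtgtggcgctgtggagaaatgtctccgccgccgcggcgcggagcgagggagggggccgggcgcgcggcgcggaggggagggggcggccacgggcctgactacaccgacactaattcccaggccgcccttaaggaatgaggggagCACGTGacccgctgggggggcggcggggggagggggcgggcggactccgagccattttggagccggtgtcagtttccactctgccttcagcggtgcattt
The E2F word of EZH2 lies directly behind the start site. That of SUZ12 begins 189 bases before it and that of EZH1 begins 115 bases before it. The E-box of BMI1 begins 70 bases before the start site. E2F words were thus present beside a pair of genes that fell and beside EZH1, which did not pass the test, but not beside BMI1. The windows of CBX7, EED, PCGF2, RING1 and RNF2 held none of the words searched. The start region of CBX2, which fell furthest, was not analysed here. A link between the words and the falls was not tested.

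Levels of different genes were compared in RPKM, in which counts are scaled to gene length and library total. In the control libraries BMI1 was the most abundant member with 38.1 ± 0.216 RPKM (SD, n = 3), followed by EZH2 with 34.4 ± 0.211, RING1 with 17.6 ± 0.977, SUZ12 with 16.5 ± 0.0845 and EED with 8.75 ± 0.202. CBX2 with 6.16 ± 0.486 RPKM and PCGF2 with 5.96 ± 0.0422 came next, and the libraries of these neighbours overlapped. The lowest levels were those of EZH1 with 1.50 ± 0.123 RPKM, CBX7 with 0.848 ± 0.0843 and RNF2 with 0.663 ± 0.191, of which CBX7 and RNF2 overlapped. After 25(OH)D the order changed at a pair of places. EZH2 with 26.9 ± 0.705 RPKM and BMI1 with 26.5 ± 1.26 overlapped at the top, and CBX2 with 3.26 ± 0.197 lay below PCGF2 with 5.88 ± 0.358 in every library. The other neighbours stood apart after 25(OH)D, CBX7 and RNF2 included. BMI1 in the control libraries was higher than 93.3% of all genes tested and RNF2 higher than 21.3%. COMMD3-BMI1, whose exons share bases with BMI1, had 75.0 ± 1.30 RPKM in control. How reads of the shared bases were assigned was not tested, which limits the level, rank and shares of BMI1.

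**Figure D2:**
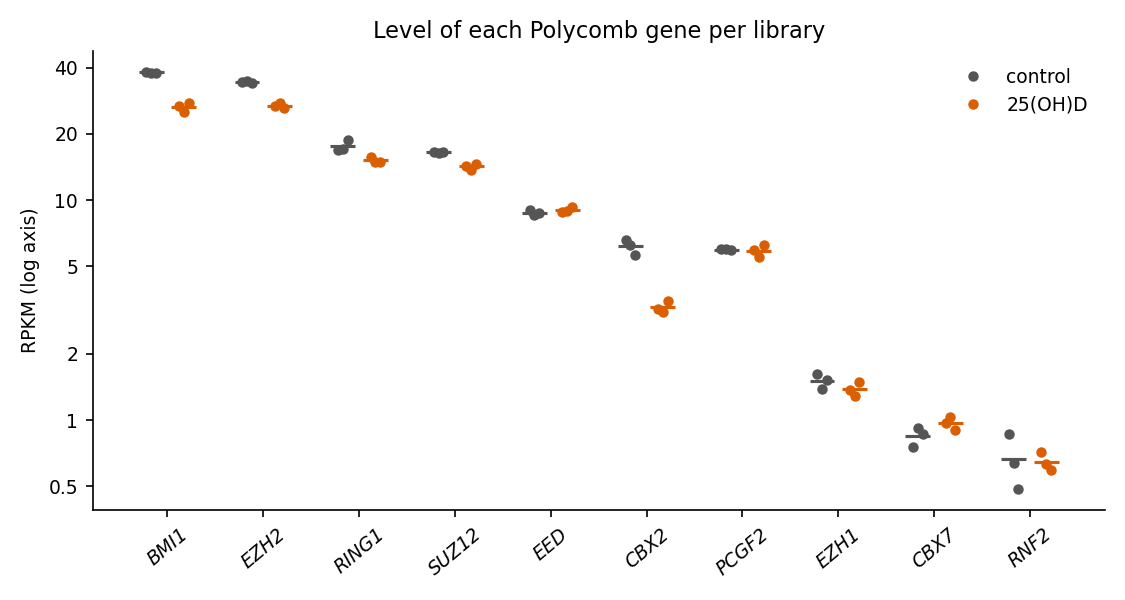
Level of each Polycomb gene in RPKM (y axis, log scale) in the 3 control libraries (grey) and the 3 25(OH)D libraries (orange), with a line at each group mean. BMI1 and EZH2 lie at the top, RNF2 lies at the bottom, and the groups stand apart most for CBX2.

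The methyltransferase EZH2 (chromosome 7, 148807383 to 148884321, minus strand of GRCh38) had 153, 154 and 153 CPM in control and 123, 126 and 121 CPM after 25(OH)D. The control libraries differed little and every 25(OH)D library lay below them. The log2 fold change was -0.31 (adjusted p = 2.38e-05, SE 0.0394), and 18.4% of all genes tested had a lower one. Its paralogue EZH1 (chromosome 17, 42700275 to 42745049, minus strand), which forms an alternative PRC2 with weaker enzymatic activity, had 11.1, 9.47 and 10.5 CPM in control and 9.73, 9.05 and 10.6 CPM after 25(OH)D. The groups overlapped, and the log2 fold change of -0.08 had a 95% interval of -0.30 to 0.14 (adjusted p = 0.579), which does not show that EZH1 stayed the same.

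SUZ12 (chromosome 17, 31937018 to 32001045, plus strand) had 106, 106 and 108 CPM in control and 95.8, 90.8 and 97.5 CPM after 25(OH)D, without overlap. Its fall was small, with a log2 fold change of -0.17 (adjusted p = 0.00821, SE 0.0444), and without 25(OH)D replicate 2 it was -0.13 with an adjusted p of 0.0683. SUZ12 shares 2.59% of the 100-base stretches of its GENCODE 29 transcripts with the pseudogene SUZ12P1, so some of its reads could have come from either. EED (chromosome 11, 86244544 to 86278813, plus strand) had 61.8, 59.1 and 60.6 CPM in control and 63.2, 63.1 and 66.6 CPM after 25(OH)D. Every 25(OH)D library lay above the control libraries in CPM, but in RPKM 25(OH)D replicate 1 (8.83) lay below control replicate 1 (8.97). The log2 fold change of 0.09 (95% interval -0.02 to 0.19) did not pass the test (adjusted p = 0.203).

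The balance within PRC2 was also read as a ratio of RPKM inside each library, which needs no scaling between libraries. These ratios were chosen after the values had been seen. EZH2 per EED was 3.83, 4.04 and 3.93 in control and 3.03, 3.09 and 2.82 after 25(OH)D. SUZ12 per EED was 1.84, 1.92 and 1.90 in control and 1.63, 1.54 and 1.57 after 25(OH)D. Both ratios stood apart between the groups, with p = 0.1 in the two-sided exact permutation test of 3 libraries against 3, the smallest p it can give. The share of EZH2 in the summed RPKM of EZH1 and EZH2 was 95.8% ± 0.345 in control and 95.1% ± 0.464 after 25(OH)D (SD, n = 3 each), and the groups overlapped (exact permutation p = 0.2).

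In PRC1, the ubiquitin ligase RING1 (chromosome 6, 33208495 to 33212722, plus strand) had 30.2, 30.6 and 33.7 CPM in control and 29.04, 27.2 and 27.7 CPM after 25(OH)D. The groups did not overlap, but the log2 fold change of -0.17 (SE 0.0663) had an adjusted p of 0.0629. With library sizes alone in place of TMM factors it was -0.21 with an adjusted p of 0.0203, and the DESeq2 test gave -0.16 with an adjusted p of 0.132. With single libraries left out it lay between -0.19 and -0.11 and never passed (edgeR adjusted p 0.0683 to 0.267). The call of RING1 thus depended on the settings. RNF2 (chromosome 1, 185045364 to 185102608, plus strand), the other ligase, had the fewest reads of the members, 144, 97 and 72 in control and 104, 100 and 80 after 25(OH)D. Its log2 fold change was 0.00 with a 95% interval of -0.46 to 0.46 (adjusted p = 0.997), and its sign was negative with upper-quartile factors or library sizes alone. This wide interval does not show that RNF2 stayed the same. RNF2 made up 3.66% ± 1.17 of the summed RPKM of RING1 and RNF2 in control and 4.08% ± 0.271 after 25(OH)D (SD, n = 3 each), with overlap between the groups (exact permutation p = 0.7).

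BMI1 (chromosome 10, 22321211 to 22331484, plus strand), the PCGF partner known for stem cell self-renewal, had 162, 160.0 and 161 CPM in control and 117, 109 and 121 CPM after 25(OH)D. The groups were far apart, with a log2 fold change of -0.48 (adjusted p = 1.37e-06, SE 0.0456), and 10.5% of all genes tested had a lower one. Of the 4283 exon bases of BMI1, 1000 also belong to COMMD3-BMI1, a readthrough transcript. It had 141 ± 2.81 CPM in control and 102 ± 5.68 CPM after 25(OH)D (SD, n = 3 each). COMMD3-BMI1 fell too, with a log2 fold change of -0.47 (adjusted p = 2.75e-06). With both genes summed the log2 fold change was -0.48 (adjusted p = 7.38e-07). Since both fell alike, the sum cannot show to which gene reads of the shared bases belong. PCGF2 (chromosome 17, 38733897 to 38749817, minus strand), its closest paralogue, had 20.6, 20.7 and 20.6 CPM in control and 21.2, 19.5 and 22.3 CPM after 25(OH)D. These groups overlapped, and the log2 fold change of 0.03 (95% interval -0.13 to 0.18, adjusted p = 0.825) was negative with upper-quartile factors or library sizes alone. PCGF2 shares 1148 exon bases with CISD3 and 456 with CTB-58E17.5 on the opposite strand. The strand setting of the counting is not given in the sources used here, so reads of these genes cannot be told apart with certainty.

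Within the pair, BMI1 took 86.5%, 86.4% and 86.5% of the summed RPKM of BMI1 and PCGF2 in control and 81.9%, 82.0% and 81.6% after 25(OH)D. The share stood apart between the groups (exact permutation p = 0.1, the smallest possible). Among all 6 PCGF genes, which define the variants of PRC1, BMI1 held 63.5%, 64.2% and 64.2% of the summed RPKM in control and 55.5%, 54.5% and 56.5% in the libraries after 25(OH)D. The shares of PCGF1 and PCGF6, partners in PRC1 variants that lack CBX2 and CBX7, went from 11.1% ± 0.829 to 14.8% ± 0.444 and from 6.55% ± 0.0977 to 8.61% ± 0.430. Of the PCGF genes outside the 10, PCGF3 fell with a log2 fold change of -0.25 (adjusted p = 0.0114), while PCGF1, PCGF5 and PCGF6 did not pass the test. The summed RPKM of the 6 genes was 59.6 ± 0.694 in control and 47.7 ± 1.44 after 25(OH)D (SD, n = 3 each), so the shares moved while the total was lower.

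CBX2 (chromosome 17, 79778132 to 79787983, plus strand), a CBX protein that also compacts chromatin, had 36.8, 35.0 and 31.8 CPM in control and 18.6, 17.8 and 20.2 CPM after 25(OH)D. No 25(OH)D library reached the lowest control library. The log2 fold change was -0.87 (adjusted p = 5.92e-07, SE 0.0763), and 3.73% of all genes tested had a lower one. CBX7 (chromosome 22, 39120167 to 39152674, minus strand), another reader of the PRC2 mark, had 5.55, 6.77 and 6.38 CPM in control and 7.40, 7.80 and 6.84 CPM after 25(OH)D. The groups did not overlap by a small margin in CPM, but in RPKM 25(OH)D replicate 3 (0.898) lay below control replicate 2 (0.923). The log2 fold change of 0.24 (95% interval -0.02 to 0.50) did not pass the test (adjusted p = 0.143). CBX7 shares 1338 exon bases with RP4-742C19.13 on the opposite strand, under the limit on strand given for PCGF2. Over the 10 members in CPM, 5 lay lower in every 25(OH)D library than in every control library and 2 lay higher. Of all genes tested, 22.9% lay lower and 22.8% higher in this way (45.7% in either direction). The 2 higher members, EED and CBX7, overlapped between the groups in RPKM.

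Within the pair of CBX2 and CBX7, CBX2 held 89.7%, 87.1% and 86.7% of the summed RPKM in control and 76.7%, 74.9% and 79.5% after 25(OH)D. The share stood apart between the groups (exact permutation p = 0.1, the smallest possible). Of the CBX genes outside the 10, CBX6 fell with a log2 fold change of -0.45 (adjusted p = 8.01e-05, SE 0.0646), while CBX8 had 19.2 ± 1.22 CPM in control and 19.2 ± 0.689 CPM after 25(OH)D (SD, n = 3 each). The log2 fold change of CBX8 was -0.01 (adjusted p = 0.965) and turned positive with DESeq2 size factors.

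**Figure D3:**
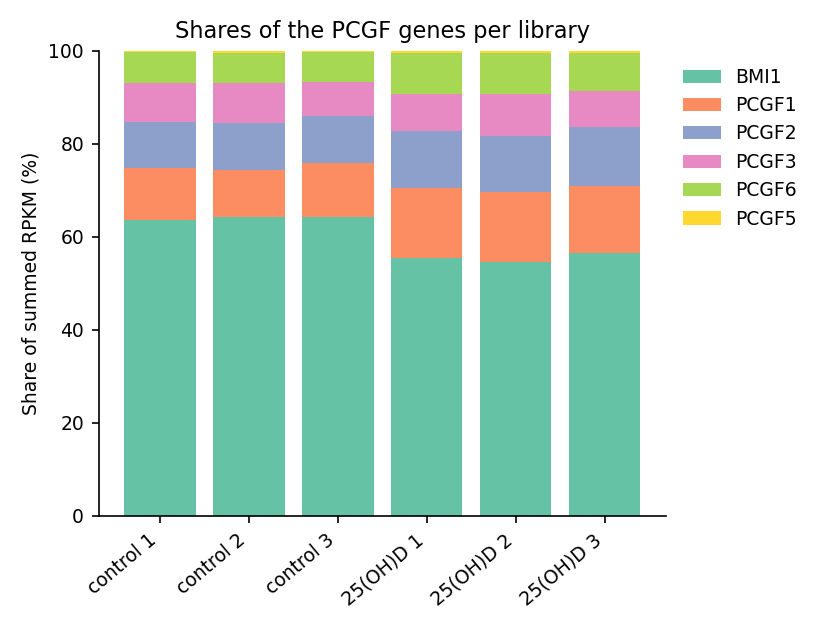
Share of each gene in the summed RPKM (y axis, %) of the 6 PCGF genes, with 1 stacked bar per library. The BMI1 part went from 64.0% to 55.5% on average, and the PCGF1, PCGF2 and PCGF6 parts were larger after 25(OH)D. The genes PCGF1, PCGF2 and PCGF6 did not themselves pass the test, and the summed RPKM was lower.

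The rest of the pathway was read from lists written from general knowledge. Of 29 other PRC1 subunits, all tested, 7 were lower (24.1%) and 4 higher (13.8%), and their median was -0.07 on the log2 scale. Of all genes tested, 16.5% were lower and 17.3% higher by the same rule. With upper-quartile factors or library sizes alone 2 were higher and 7 lower, and 1 was higher without 25(OH)D replicate 2 and 2 without any single control replicate. Besides CBX6, the smallest p-values among those that fell were those of RYBP, a subunit of PRC1 variants that lack CBX2 and CBX7, at -0.34 (adjusted p = 1.74e-04) and BCOR, a corepressor bound to PCGF1, at -0.25 (adjusted p = 0.00169). Among those that rose were SCMH1 at 0.40 (adjusted p = 0.0203) and SKP1 at 0.14 (adjusted p = 0.0215), and SKP1 did not pass with library sizes alone (adjusted p = 0.103). Of 11 PRC2 accessory genes 10 were analysed here, and all 10 passed the low-count filter. Of these, 2 fell (20%), against 16.5% lower and 17.3% higher among all genes tested. The count of rises was 0 in edgeR, and it was also 0 at an unadjusted p under 0.05, with DESeq2 and with limma voom. PHF19, which helps PRC2 bind chromatin, had 17.3, 18.1 and 18.4 CPM in control and 11.0, 13.8 and 13.7 CPM after 25(OH)D (log2 fold change -0.48, adjusted p = 0.00115, SE 0.0950). JARID2, a cofactor that stimulates PRC2, was the other, at -0.19 (adjusted p = 0.0128). Only 1 accessory gene was lower without control replicate 3, 25(OH)D replicate 1 or 25(OH)D replicate 2, and 4 were with upper-quartile factors or library sizes alone.

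Of 14 genes that remove Polycomb marks or belong to the deubiquitinase complex of BAP1, 13 were tested. Of these, 5 were lower (38.5%), or 3 without 25(OH)D replicate 2, and 2 higher (15.4%). The shares over all genes tested were 16.5% lower and 17.3% higher. OGT, the enzyme that adds N-acetylglucosamine to proteins, fell with a log2 fold change of -0.33 (adjusted p = 2.25e-05), the deubiquitinase BAP1 with -0.24 (adjusted p = 0.00346) and the histone demethylase KDM6A with -0.30 (adjusted p = 0.0130). MYSM1, another deubiquitinase of histone H2A, rose with 0.29 (adjusted p = 1.20e-04), and FOXK1, a DNA-binding partner of BAP1, with 0.33 (adjusted p = 0.00244). Thus EZH2, which writes a mark, and BAP1 and KDM6A, which remove marks, were among the genes that fell.

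Of 30 genes often described as Polycomb targets in other cells, 26 were analysed here and 16 of them passed the low-count filter. Among these 16, 6 were higher (37.5%) and 5 lower (31.2%). The fit without control replicate 1 gave 9 higher and 3 lower among those it tested. The shares over all genes tested were 17.3% higher and 16.5% lower. No binding or histone mark was measured in these libraries, so whether the genes are Polycomb targets in MDA-MB-453 was not tested. The cell cycle inhibitor CDKN1A had 5.69, 5.79 and 5.73 CPM in control and 11.7, 15.3 and 14.3 CPM after 25(OH)D, a log2 fold change of 1.26 (adjusted p = 7.70e-07, SE 0.113). CDKN2B, an inhibitor of CDK4 and CDK6, rose with 0.67 (adjusted p = 0.00149), and the epithelial cadherin CDH1 with 0.34 (adjusted p = 0.00139). CDKN1B, a further inhibitor, fell with -0.30 (adjusted p = 6.44e-05), MYT1 with -0.71 (adjusted p = 1.74e-05) and RAP1GAP, a brake on the small GTPase RAP1, from 185 ± 2.93 to 82.1 ± 0.809 CPM (SD, n = 3 each), with -1.17 (adjusted p = 2.06e-11). The members of this list therefore moved in both directions while EZH2, SUZ12, BMI1 and CBX2 were lower.

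Genes of proliferation moved in the same libraries as the fall of EZH2, whose transcription is known to rise in cycling cells. Of 28 such genes, all tested, 20 were lower in edgeR (71.4%), against 16.5% of all genes tested. Their median log2 fold change was -0.30. None of the 28 was higher in edgeR, where 0 were higher also at an unadjusted p under 0.05, or with DESeq2 or limma voom. Their summed level lay between 5646 and 5671 CPM in the control libraries and between 4409 and 4633 CPM in the 25(OH)D libraries. TOP2A, the topoisomerase of dividing cells, fell with a log2 fold change of -0.77 (adjusted p = 1.33e-08), and the cyclins CCNA2 and CCNB1 with -0.73 (adjusted p = 7.02e-07) and -0.60 (adjusted p = 4.83e-07). The part of proliferation in the fall of the Polycomb genes was not tested.

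**Figure D4:**
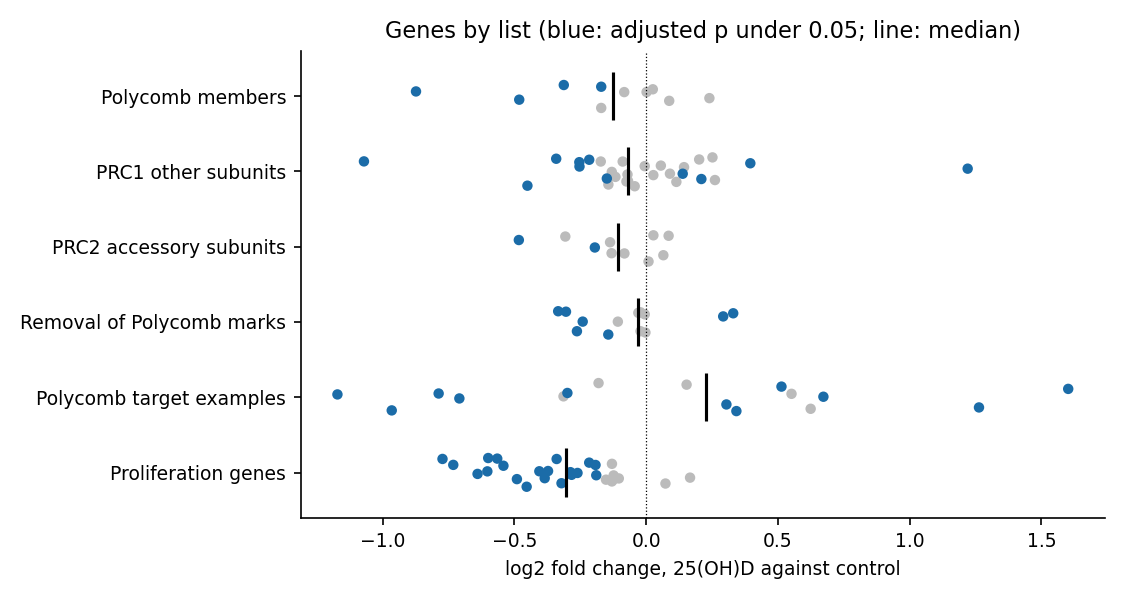
Log2 fold change (x axis, 25(OH)D against control) of each tested gene in the 10 members and 5 lists, with blue points at an adjusted p under 0.05 and a black line at the median. The median lies at -0.30 for the proliferation genes and at -0.13 for the Polycomb members, and the Polycomb target examples spread to both sides.

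Markers of luminal breast epithelium and of other cell types were read as well. All 9 luminal epithelial markers were tested, with summed levels of 4383 to 4522 CPM in control and 4550 to 4581 CPM after 25(OH)D. Of the 9, 5 were higher (55.6%) and 3 lower (33.3%), against 17.3% and 16.5% of all genes tested. ERBB2 rose with a log2 fold change of 0.22 (adjusted p = 1.89e-04), while GATA3 fell with -0.80 (adjusted p = 8.56e-10), KRT19 with -0.41 (adjusted p = 7.57e-07) and FOXA1 with -0.46 (adjusted p = 1.51e-05). Of 15 markers of other cell types, COL1A1 was at 37.5 ± 1.39 CPM in control and 33.1 ± 1.19 CPM after 25(OH)D (SD, n = 3 each; log2 fold change -0.18, adjusted p = 0.0320). The 13 others with values summed to between 1.43 and 1.82 CPM in control and between 1.51 and 1.96 CPM after 25(OH)D, and none was at 0 in all libraries. The mitochondrial share of counts was 7.85% to 7.99% in control and 8.89% to 9.24% after 25(OH)D, and the calls of the members were unchanged without these genes.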

How the data were processed

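mRNA of MDA-MB-453 cells was sequenced in 3 control and 3 25(OH)D libraries, which were assigned to groups from the sample labels. The authors deposited raw read counts for each gene, with no normalization, and RPKM values, equal to the counts divided by gene length and library total (checked on every value). The submitters' processing notes name Trimmomatic 0.36, featureCounts, Subread 1.5.1, edgeR 3.12.1 and GRCh38. The aligner and annotation release are not given in the sources used here. All value columns were used.

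Counts were tested with edgeR 4.0.16 in R 4.3.3 (TMM, low-count filter at a minimum count of 10, quasi-likelihood test without covariates), with Benjamini-Hochberg adjustment over 18183 genes. CPM values use TMM-scaled library sizes. Intervals are 95% intervals of the fit. The test was checked on simulated data. Alternatives used DESeq2 1.42.0, limma 3.58.1 with voom or log2(RPKM + 1) and log2(RPKM + 0.1), other scaling factors, no filter, the replicate block, omission of each library, and, chosen after seeing the data, omission of mitochondrial genes and the sum of BMI1 and COMMD3-BMI1. Shares were compared by exact permutation (scipy 1.17.1).

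The members and lists were chosen with earlier results of these data known. All 10 members were named, with every gene sharing their exon bases and, per list, up to 3 genes with the smallest p in each direction among those called, apart from some genes that are not reported here. COX5BP7, inside the exons of CBX7, had at most 2 counts. PCGF1, PCGF3, PCGF5, PCGF6 and CBX8 were named as paralogues after their values were seen. The start region of CBX2 was not analysed here. List genes without a row were not analysed here. The total count sets the precision at low counts.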

Additional observations from a re-analysis of the deposited data

How the results depend on the processing

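With upper-quartile factors or library sizes alone in edgeR, RING1 passed at log2 fold changes of -0.21 and -0.21 (adjusted p = 0.0256 and 0.0203). With limma on log2(RPKM + 1) or log2(RPKM + 0.1) it passed at -0.20 and -0.21 (adjusted p = 0.0198 and 0.0193). The adjusted p of RING1 ranged from 0.0193 to 0.132 over the alternatives with all libraries. With single libraries omitted in edgeR it ranged from 0.0683 to 0.267. Under the same 4 settings RNF2 turned to -0.038, -0.043, -0.0097 and -0.0067 and PCGF2 to -0.016, -0.019, -0.017 and -0.019, none past the threshold. With single libraries omitted, log2 fold changes lay between -0.17 and 0.25 for RNF2, -0.0089 and 0.083 for PCGF2, and -0.18 and -0.13 for SUZ12, whose call was lost without 25(OH)D replicate 2, so between 3 and 4 members were lower. BMI1, CBX2 and EZH2 kept their calls under all alternatives. The alternatives with all libraries called between 4 and 5 members lower and 0 higher.

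Under upper-quartile factors and library sizes alone, 2 and 2 other PRC1 subunits were higher and 4 and 4 PRC2 accessory genes lower. With log2(RPKM + 1) and log2(RPKM + 0.1), 1 and 1 other PRC1 subunits and 1 and 1 genes that remove marks were higher. Leaving out single libraries gave 1 to 4 other PRC1 subunits higher and 1 to 2 PRC2 accessory genes lower. It gave 3 to 4 genes that remove marks lower (3 without 25(OH)D replicate 2). Of the target examples, 3 to 5 were then lower and 5 to 9 higher (3 lower and 9 higher without control replicate 1). The alternatives with all libraries gave 5 to 8 target examples higher. The other PRC1 subunits called higher were 2 without control replicates 1, 2 or 3 and 1 without 25(OH)D replicate 2, and the PRC2 accessory gene called lower was 1 without control replicate 3, 25(OH)D replicate 1 or 25(OH)D replicate 2. From raw counts without gene length the share of BMI1 against PCGF2 changed by -4.04 points in place of -4.66, and the change in the share of RNF2 lay between -0.15 and 1.02 points when single libraries were left out. The causes of these shifts were not tested, apart from the omitted libraries, scaling and added constant by which the settings were built.

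Samples with the same replicate number did not deviate together (correlations over genes -0.0721, -0.0120 and -0.0460), so the numbers were not taken as pairs. With the replicate block the log2 fold changes were -0.87 for CBX2, -0.48 for BMI1, -0.31 for EZH2 and -0.17 for SUZ12, and the block left 4 members lower and changed no call among the members. Few reads limit RNF2, CBX7 and EZH1.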

Other observations

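Among the other PRC1 subunits, SCML2 passed a log2 fold change of 1 with few reads, from 1.85 ± 0.462 to 0.877 ± 0.0554 CPM (SD, n = 3 each), or -1.07 on the log2 scale (adjusted p = 0.00571 in edgeR, SE 0.263). It was singled out after its values were seen. KDM2B, which recruits PRC1 to CpG islands, fell from 41.7 ± 0.772 to 35.9 ± 0.596 CPM, and USP7 fell from 279.6 ± 5.21 to 252 ± 4.63 CPM (SD, n = 3 each), with adjusted p = 0.00710 and 0.00554 from the same test. These were also chosen after their values were seen.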
